A study of Mus musculus with 12 samples.

Results

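The MYC network is a set of basic helix-loop-helix leucine zipper proteins that meet at the shared partner MAX. Here 10 of its genes, chosen as MYC family members and their partners and antagonists, were followed by symbol through 12 RNA-seq libraries of induced MEL cells, out of 37991 genes counted. Reads were found in every library for 8 of the 10 genes (Myc, Max, Mxd1, Mxd3, Mxd4, Mxi1, Mnt and Mlx), and these 8 were tested. Mycn had 0 reads in all 12 libraries and Mycl had 1 read in all, in control replicate 3, so neither was tested. A count of 0 allowed a level of up to 0.147 to 0.342 CPM (gene reads scaled to a common library size after TMM normalisation), taking 3 reads per library as the limit, and this covers counting error only.

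As background, MYC pairs with MAX and binds the E-box CACGTG, where it recruits acetyltransferase complexes and raises transcription of genes for growth, ribosome production and metabolism. The MXD proteins, MXI1 and MNT pair with the same partner, bind the same sites and bring in SIN3 and histone deacetylases. MLX is a related hub that pairs with MondoA (Mlxip) and ChREBP (Mlxipl), and also with some of the MXD proteins and MNT. In red cell precursors MYC keeps cells dividing, and its fall together with a rise of MXD genes is a known feature of terminal maturation in erythroleukemia lines.

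The cells were MEL, erythroleukemia cells of the mouse that start to mature along the red cell lineage once induced, and all 4 groups were induced. In the FL group, knockdown cells expressed full-length LDB1, and in the delta45 group they expressed the LDB1 delta4/5 construct. In the KD group LDB1 was knocked down with no construct added, and the control group was wild-type MEL. LDB1 joins erythroid DNA-binding factors into a complex that has been linked to chromatin looping. Each group had 3 libraries. The inducing agent, the vectors and promoters that drove the constructs, and whether a line was 1 clone are not stated in the labels used here.

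Ldb1 itself was read at 3694, 3408 and 3207 CPM in FL, 750, 781 and 763 CPM in delta45, 159, 132 and 97 CPM in KD, and 743, 772 and 637 CPM in control. All 3 KD libraries lay below every other library, and counts do not separate a construct from the cells' own gene. Libraries held 8783970 to 20464959 gene reads, and 38.7 to 53.3% of tallied reads aligned to several places and were not assigned to genes. That share was lowest in delta45 (38.69, 39.15 and 39.22%) and highest in control (53.31, 51.95 and 50.6%). It was 42.26, 46.08 and 47.12% in FL and 42.69, 43.02 and 48.51% in KD. The share thus moved with the groups, and its part in the changes below was not tested. KD libraries were the least alike (Pearson r of log2 CPM 0.953 to 0.975, against 0.983 to 0.993 within the other groups). All 12 of the erythroid markers checked were read in every group, with a summed level of 25318 to 33026 CPM in FL, 3940 to 4401 CPM in delta45, 3128 to 6399 CPM in KD and 11973 to 12353 CPM in control. In FL the largest parts were Hba-a1, Hbb-bs and Alas2 (means 9617, 9575 and 5162 CPM). Against the sums, Car1 averaged 0.284 CPM in FL and 495 in control, and Slc4a1 30.5 and 57.5. Tal1 averaged 1185 CPM in KD and 526 in control, Epor 512 and 375, and Klf1 243 and 206. Megakaryocyte markers summed to 2812 to 2918, 179 to 197, 798 to 841 and 836 to 931 CPM in FL, delta45, KD and control. Myeloid markers stayed at or below 70.8 CPM in sum with Ly6g, a granulocyte marker, at 0 reads in delta45, KD and control, lymphoid markers at or below 45.2 CPM with Pax5 and Il7r at 0 in all groups, mast and basophil markers at or below 2.23 CPM, and stromal and endothelial markers at or below 51.4 CPM. The largest myeloid part was Spi1, averaging 13.2, 2.98, 26.9 and 55.7 CPM in FL, delta45, KD and control. In the same order Lck, the largest lymphoid part, averaged 7.47, 3.35, 24.9 and 9.27 CPM, and Cd3g 0.366, 2.26, 13 and 5.29 CPM. Pdgfrb, the largest stromal part, averaged 23.4, 11.3, 32.8 and 33.1 CPM. These marker sums moved with the groups, and their part in the network's changes was not tested. In bulk RNA, fewer cells of a state and less RNA per cell cannot be told apart.

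Promoter sequence was read for 9 of the 10 genes from RefSeq (GRCm38.p6), as windows of 300 bases from 250 before to 50 after each annotated start, in 11 windows because Mxi1 has 3. No window was available for Myc, so its promoter was not searched. The E-box CACGTG, a palindrome that reads the same on both strands, was present in the windows of 4 members, Max, Mxd4, Mnt and Mlx. It occurs in 7.15% of the 32851 windows of all genes. These 4 stretches are shown because they carry the network's own binding letters, given in capitals, 5′ to 3′ on the strand of the gene.
Max (chr12:76962226-76962271, reverse strand): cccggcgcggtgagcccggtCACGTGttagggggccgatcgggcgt
Mxd4 (chr5:34187904-34187949, reverse strand): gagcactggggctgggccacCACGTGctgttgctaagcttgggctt
Mnt (chr11:74830781-74830826, forward strand): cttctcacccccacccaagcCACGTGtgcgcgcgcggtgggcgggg
Mlx (chr11:101087230-101087275, forward strand): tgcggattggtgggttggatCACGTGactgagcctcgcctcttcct
The first base of the E-box lay 3 bases before the start of Max, 219 before that of Mxd4, 123 before that of Mnt and 40 before that of Mlx. GATA letters (AGATAA on either strand, also with G as the last base or T as the first) were found in the window of 1 member, Mlx, and in 29.8% of all windows. A match describes letters in a window and not a bound site.

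The design allows 6 comparisons, and of the 8 tested members 4 to 7 changed in each. In KD against control 3 members were higher (Myc, Max and Mxd3) and 2 lower (Mxd1 and Mxi1), where 49.7% of all 12837 tested genes were called. In FL against KD 3 were higher (Mxd1, Mxi1 and Mlx) and 3 lower (Myc, Max and Mxd3), against 58.0% of all tested genes. In delta45 against KD 2 were higher (Myc and Mxd1) and 4 lower (Max, Mxd3, Mxd4 and Mxi1), against 59.9%. In FL against delta45 4 were higher (Mxd1, Mxd4, Mxi1 and Mlx) and 3 lower (Myc, Mxd3 and Mnt), against 52.8%. In FL against control 2 were higher (Mxd1 and Mlx) and 2 lower (Mxd3 and Mxi1), against 59.3%. In delta45 against control 2 were higher (Myc and Mlx) and 2 lower (Mxd4 and Mxi1), against 64.4%.

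Calls are at a Benjamini-Hochberg adjusted p under 0.05 from edgeR's quasi-likelihood test across all tested genes, and changes below are log2 ± SE from that fit. With 8 genes, shares called of 4 to 7 in 8 stood near these backgrounds in several comparisons, so the number called says little by itself. The comparisons share libraries with each other, 3 of them using KD, and are not independent. With 3 libraries a side, the smallest two-sided p of an exact permutation test is 0.1, which is why a fit that pools the spread over genes was used. The labels do not state that replicates were grown separately, and the p-values then cover no more than the variation among these libraries, possibly technical. When libraries were scaled by their totals alone, the median gene moved by -0.27 (log2) in FL against KD, -0.28 in FL against delta45 and -0.22 in FL against control. The share of calls that were higher was then 26.7% in place of 45.4%, 29.2% in place of 48.8%, and 31.8% in place of 47.4% in these comparisons, so calls in FL are relative to the scaling.

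**Figure D1:**
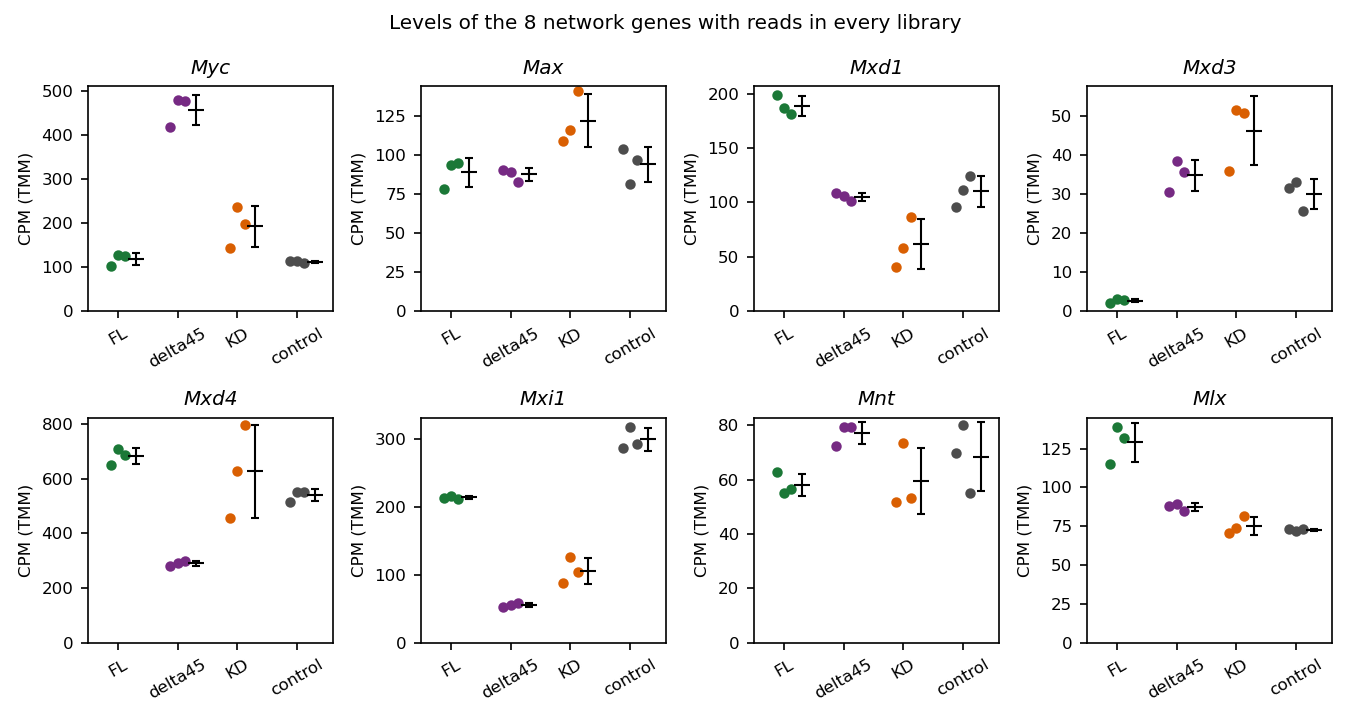
CPM of the 8 tested members in each library (coloured points), with the group mean and SD beside them in black (n = 3), in FL, delta45, KD and control. Myc stood at 419 to 479 CPM in delta45 and at or below 236 CPM in all other libraries, Mxd3 at or below 3.14 CPM in FL, and Mxi1 was lowest in delta45 and highest in control.

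Myc (ENSMUSG00000022346, chromosome 15), the network's main activator, was highest in delta45. It had 103, 127 and 125 CPM in FL, 419, 479 and 477 CPM in delta45, 144, 236 and 199 CPM in KD, and 113, 114 and 109 CPM in control. The 3 delta45 libraries lay above all others, the KD libraries above all FL and control libraries, and FL and control overlapped. Myc was 1.72-fold higher in KD than in control (0.79 ± 0.155, edgeR adjusted p = 0.00103). In FL it was 1.63-fold lower than in KD (-0.70 ± 0.155, edgeR adjusted p = 0.00173), whereas in delta45 it was 2.38-fold higher than in KD (1.25 ± 0.155, edgeR adjusted p = 2.52e-05). The direct comparison put it 3.87-fold lower in FL than in delta45 (-1.95 ± 0.158, edgeR adjusted p = 3.57e-07). Against control it was 4.1-fold higher in delta45 (2.03 ± 0.159, edgeR adjusted p = 2.47e-07) and was not called in FL (0.08 ± 0.154, edgeR adjusted p = 0.664, and -0.14 with library totals alone). In order, delta45 stood above KD, and KD above FL and control, which did not differ beyond their spread. When tested against a 1.5-fold change, the calls in KD against control (edgeR adjusted p = 0.138) and FL against KD (edgeR adjusted p = 0.225) were lost.

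Max (ENSMUSG00000059436, chromosome 12), the partner that both activator and antagonists need, was highest in KD. Its levels were 78.1, 93.3 and 95 CPM in FL, 90.5, 89.3 and 82.7 CPM in delta45, 109, 116 and 141 CPM in KD, and 104, 81.5 and 96.8 CPM in control. All KD libraries lay above the rest, and the other 3 groups overlapped. Max was 1.38-fold lower in FL than in KD (-0.46 ± 0.128, edgeR adjusted p = 0.00781) and 1.4-fold lower in delta45 than in KD (-0.48 ± 0.128, edgeR adjusted p = 0.00572). It was 1.3-fold higher in KD than in control (0.38 ± 0.128, edgeR adjusted p = 0.0254), a call that was lost without KD replicate 3 (adjusted p = 0.0891) or control replicate 2 (adjusted p = 0.108).

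Mxi1 (ENSMUSG00000025025, chromosome 19), an antagonist that recruits SIN3, ran in nearly the reverse order of Myc, with control above FL, FL above KD and KD above delta45. It had 213, 216 and 212 CPM in FL, 52.9, 55.9 and 57.9 CPM in delta45, 88.1, 126 and 104 CPM in KD, and 287, 318 and 292 CPM in control. No library of a group overlapped with another group, and all 6 comparisons were called. Mxi1 was 2.81-fold lower in KD than in control (-1.49 ± 0.121, edgeR adjusted p = 1.06e-06). It was 2.01-fold higher in FL than in KD (1.01 ± 0.12, edgeR adjusted p = 1.43e-05) but 1.91-fold lower in delta45 than in KD (-0.94 ± 0.121, edgeR adjusted p = 3.46e-05). In FL it was 3.84-fold higher than in delta45 (1.94 ± 0.123, edgeR adjusted p = 3.56e-08) and 1.4-fold lower than in control (-0.49 ± 0.119, edgeR adjusted p = 0.00329). Its largest change was 5.38-fold lower in delta45 than in control (-2.43 ± 0.125, edgeR adjusted p = 8.27e-09).

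Mxd4 (ENSMUSG00000037235, chromosome 5), a MAX-binding repressor of the same family, was lowest in delta45. It had 651, 709 and 686 CPM in FL, 281, 291 and 300.1 CPM in delta45, 457, 628 and 798 CPM in KD, and 513, 553 and 550.1 CPM in control. The delta45 libraries lay below all others, while the KD libraries spanned those of control and FL. Mxd4 was 2.16-fold lower in delta45 than in KD (-1.11 ± 0.156, edgeR adjusted p = 6.78e-05), 2.35-fold higher in FL than in delta45 (1.23 ± 0.157, edgeR adjusted p = 2.17e-05) and 1.85-fold lower in delta45 than in control (-0.89 ± 0.156, edgeR adjusted p = 0.000244). KD against control was not called (0.22 ± 0.154, edgeR adjusted p = 0.256), but without KD replicate 1 it was (0.40, adjusted p = 0.00677). FL against KD was not called either (0.12 ± 0.154, edgeR adjusted p = 0.519), and was called without KD replicate 3 (0.33, adjusted p = 0.0345). FL against control stood at 0.34 ± 0.155 (edgeR adjusted p = 0.0732) and was called without any 1 KD library or delta45 replicate 1 (adjusted p 0.00272 to 0.0492), and with the replicate number as a block (adjusted p = 0.047).

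Mxd1 (ENSMUSG00000001156, chromosome 6), the MXD gene best known from differentiating blood cells, was highest in FL and lowest in KD. It had 199, 187 and 181 CPM in FL, 109, 106 and 101 CPM in delta45, 40.9, 58 and 86.3 CPM in KD, and 95.5, 111 and 124 CPM in control. FL and KD each stood apart, and delta45 and control overlapped. Mxd1 was 1.79-fold lower in KD than in control (-0.84 ± 0.202, edgeR adjusted p = 0.0039), 3.07-fold higher in FL than in KD (1.62 ± 0.204, edgeR adjusted p = 2.34e-05) and 1.71-fold higher in delta45 than in KD (0.77 ± 0.201, edgeR adjusted p = 0.00521). It was 1.8-fold higher in FL than in delta45 (0.85 ± 0.199, edgeR adjusted p = 0.00294) and 1.72-fold higher in FL than in control (0.78 ± 0.2, edgeR adjusted p = 0.00455). Mxd1 was thus higher with either construct than in KD, while Mxi1 moved in opposite directions with the 2 constructs.

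Mxd3 (ENSMUSG00000021485, chromosome 13), an MXD gene known from dividing progenitors rather than mature cells, was scarce in FL. It had 2.19, 3.14 and 2.76 CPM in FL, 30.6, 38.4 and 35.5 CPM in delta45, 36, 51.6 and 50.8 CPM in KD, and 31.4, 33.1 and 25.7 CPM in control. The FL values rest on 95 reads over the 3 libraries, against 1723 in delta45, 1574 in KD and 1061 in control. The FL libraries lay far below all others, and delta45 overlapped with both KD and control. Mxd3 was 17-fold lower in FL than in KD (-4.09 ± 0.204, edgeR adjusted p = 9.02e-09), 12.9-fold lower than in delta45 (-3.69 ± 0.202, edgeR adjusted p = 1.08e-08) and 11.1-fold lower than in control (-3.47 ± 0.203, edgeR adjusted p = 2.11e-08). These were the largest changes of any member. In KD it was 1.54-fold higher than in control (0.62 ± 0.164, edgeR adjusted p = 0.0071). The 1.32-fold lower level in delta45 than in KD (-0.41 ± 0.162, edgeR adjusted p = 0.0453) was lost without delta45 replicate 1 (adjusted p = 0.199) or KD replicate 2 (adjusted p = 0.187), and also without any other library but FL replicate 1 and KD replicate 1.

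Mxd3 overlaps exons of Prelid1 on the opposite strand, and the kit does not mark the strand, so reads of the shared stretch cannot be told apart. Prelid1, a mitochondrial lipid transfer gene, averaged 250.1 CPM in FL, 125 CPM in delta45, 378 CPM in KD and 267 CPM in control. Like Mxd3 it was higher in KD than in control (0.51 ± 0.196, edgeR adjusted p = 0.0469), and lower in FL than in KD (-0.60 ± 0.196, edgeR adjusted p = 0.0193) and in delta45 than in KD (-1.60 ± 0.2, edgeR adjusted p = 2.75e-05). Unlike Mxd3 it was higher in FL than in delta45 (2-fold, edgeR adjusted p = 0.000868) and lower in delta45 than in control (-1.09 ± 0.198, edgeR adjusted p = 0.000334). Its part in the Mxd3 counts was not tested. The Mxd3 promoter is shown whole because the gene has the widest range of all members, with capitals marking an E2F-like match (TTCCCGC on either strand, also with GG, CG or GC as its letters 3 and 4), a motif chosen after the values were seen.
Mxd3 (chr13:55329682-55329981, reverse strand): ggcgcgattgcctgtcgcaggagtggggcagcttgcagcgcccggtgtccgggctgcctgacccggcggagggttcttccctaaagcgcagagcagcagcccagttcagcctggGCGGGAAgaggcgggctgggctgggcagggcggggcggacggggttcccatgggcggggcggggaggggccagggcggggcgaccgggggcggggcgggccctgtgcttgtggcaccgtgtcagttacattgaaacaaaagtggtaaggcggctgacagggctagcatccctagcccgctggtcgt
The match began 136 bases before the start, and such letters occur in 9.57% of all windows and in windows of 3 members, Mycn, Mxd3 and Mxi1.

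Mnt (ENSMUSG00000000282, chromosome 11), the broadly expressed antagonist, had a narrow range of group means, 58.1 to 77.2 CPM. It had 62.8, 55.2 and 56.5 CPM in FL, 72.5, 79.6 and 79.4 CPM in delta45, 51.7, 73.4 and 53.4 CPM in KD, and 69.9, 80.3 and 55 CPM in control. Only FL against delta45 was called, 1.33-fold lower in FL (-0.41 ± 0.156, edgeR adjusted p = 0.0417). That call was lost when any of the 6 FL and delta45 libraries or control replicate 1 was left out (adjusted p 0.0504 to 0.146). In delta45 against KD the change was 0.38 ± 0.156 (edgeR adjusted p = 0.0516), and it was called without KD replicate 2 (0.58, adjusted p = 0.0068), control replicate 2 (adjusted p = 0.0439) or control replicate 3 (adjusted p = 0.0241).

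Mlx (ENSMUSG00000017801, chromosome 11), the hub of the parallel MondoA and ChREBP branch, was highest in FL. It had 115, 139 and 132 CPM in FL, 88.3, 89.4 and 84.8 CPM in delta45, 70.4, 73.9 and 81.9 CPM in KD, and 73, 72.1 and 73.3 CPM in control. FL and delta45 each stood apart from the rest, and KD overlapped with control. Mlx was 1.7-fold higher in FL than in KD (0.77 ± 0.1, edgeR adjusted p = 3.06e-05), 1.47-fold higher than in delta45 (0.56 ± 0.0997, edgeR adjusted p = 0.000409) and 1.76-fold higher than in control (0.82 ± 0.101, edgeR adjusted p = 1.53e-05). The 1.2-fold higher level in delta45 than in control (0.27 ± 0.1, edgeR adjusted p = 0.0329) was lost without delta45 replicate 1 or 2 or control replicate 1 or 2 (adjusted p 0.0573 to 0.079). In delta45 against KD it was 0.22 ± 0.1 (edgeR adjusted p = 0.079), and it was called without KD replicate 3 (0.28, adjusted p = 0.0282). Mlx shares exons with Psmc3ip, a meiotic recombination gene on the opposite strand, which averaged 3.37 CPM in FL, 12.3 CPM in delta45, 11.9 CPM in KD and 0.77 CPM in control.

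**Figure D2:**
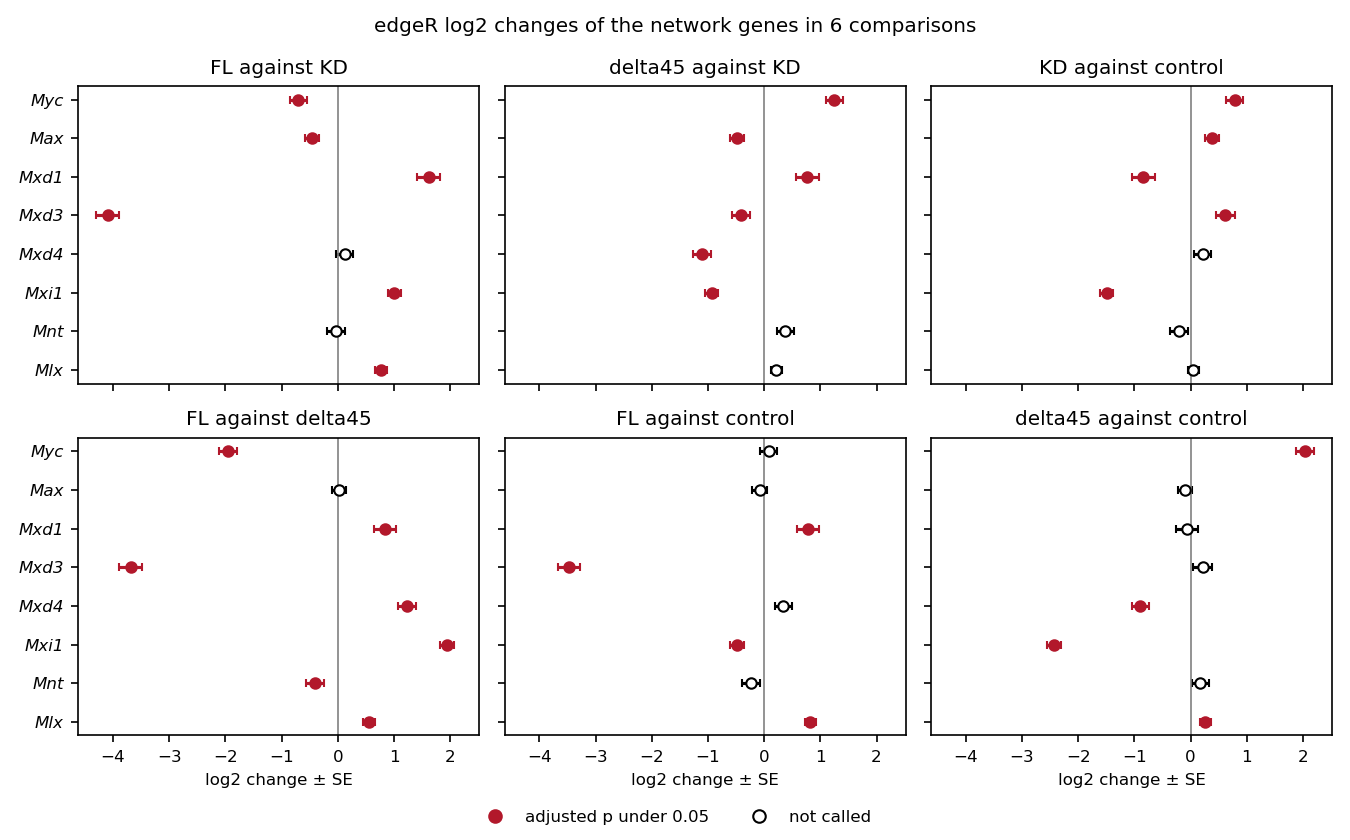
Log2 change with its SE for each tested member in the 6 comparisons, from edgeR's fit to all 12 libraries. Filled points passed the adjusted p threshold of 0.05. Mxd3 in the 3 comparisons of FL reaches -3.47 to -4.09, and Myc and Mxi1 lie on opposite sides of 0 wherever both were called.

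Because the members compete for MAX, their levels were also set side by side per length, as CPM per kilobase of annotated exon. On this scale Myc averaged 43.6 ± 4.87 in FL, 169 ± 12.6 in delta45, 71 ± 17.1 in KD and 41.2 ± 1.01 in control (SD, n = 3 each). The per-length levels of Mxd1, Mxd3, Mxd4, Mxi1 and Mnt summed to 152 ± 2.41 in FL, 88.7 ± 3.35 in delta45, 131 ± 28.6 in KD and 150.4 ± 7.46 in control. The ratio of this sum to Myc was 3.97, 3.32 and 3.28 in FL, 0.55, 0.515 and 0.515 in delta45, 1.87, 1.59 and 2.11 in KD, and 3.47, 3.8 and 3.7 in control. The ratios of FL and control overlapped, and those of KD were lower. Per length, delta45 was the only group in which Myc exceeded its antagonists together. In plain CPM it did not: delta45 averaged 458 for Myc, against 105 (Mxd1), 34.8 (Mxd3), 291 (Mxd4), 55.6 (Mxi1) and 77.2 (Mnt), together more. The per-length ratios and ranks rest on lengths that join all annotated exons of a gene, 2717 bases for Myc and 8483 for Mxd4. Myc was the most abundant tested member per length in delta45 and stood at rank 3 in FL and control, where Mxd4 led. Among the antagonists Mxd4 had the highest per-length level in every group.

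The make-up of the antagonist sum differed too. Mxd4 made up 52.8% of it in FL, 38.6% in delta45, 56.2% in KD and 42.3% in control. Mxi1 made up 20.6% in FL, 9.19% in delta45, 12.1% in KD and 29.1% in control, and Mxd1 17.6%, 16.8%, 6.56% and 10.4%. Mxd3 made up 0.747% in FL, against 16.5% in delta45, 15% in KD and 8.43% in control. FL and control, whose ratios overlapped, thus held different mixtures, with more Mxd1 and Mxd4 and less Mxi1 and Mxd3 in FL. The ratio of Myc to Max was 1.77 in FL, 6.95 in delta45, 2.1 in KD and 1.59 in control. These are mRNA levels, and no test was made on the ratios.

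**Figure D3:**
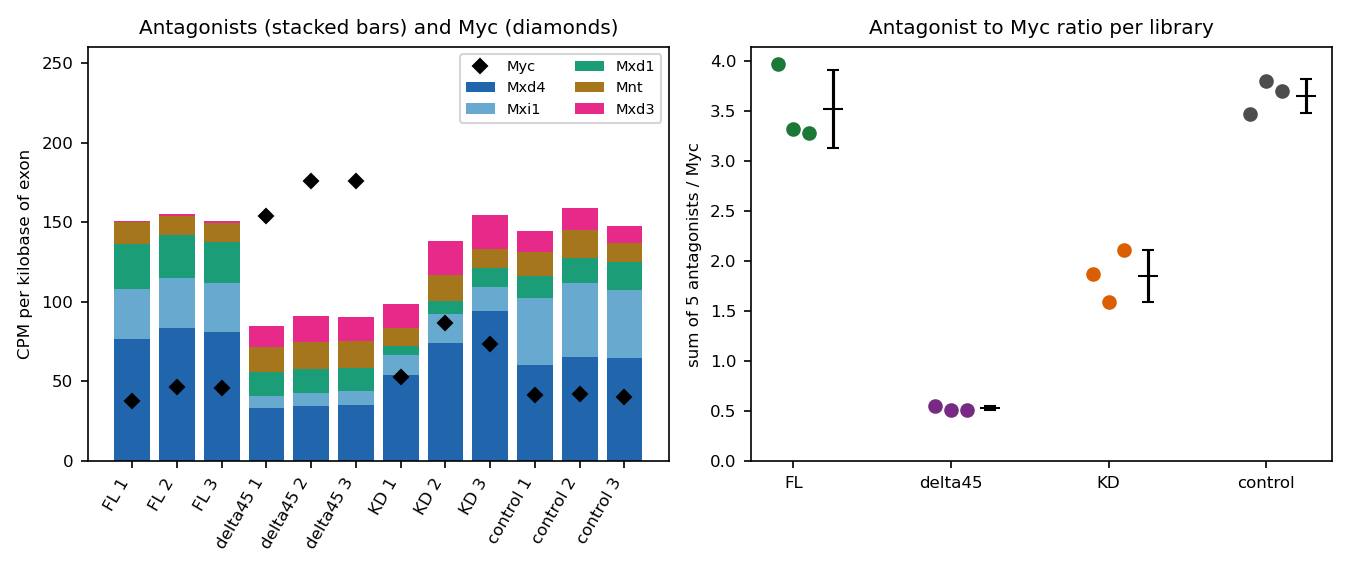
Left, CPM per kilobase of exon of the antagonists (stacked) and of Myc (diamonds) in each library. Right, the ratio of the antagonist sum to Myc in each library (points) with mean and SD in black (n = 3), which lies at 3.28 to 3.97 in FL, 0.515 to 0.55 in delta45, 1.59 to 2.11 in KD and 3.47 to 3.8 in control.

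Most genes that MYC is known to activate were higher in delta45 than in KD or control, and lower in FL than in delta45 or KD. Of 30 such genes, all tested, 27 were higher and 2 lower in delta45 than in control, beside 31.9% and 32.5% of all tested genes, with a median change of 1.22 against 0.01 for all tested genes. The 2 became 1 without control replicate 3, delta45 replicate 2 or delta45 replicate 3. In delta45 against KD 23 were higher and 1 lower (median 0.69, all genes -0.01), beside 29.2% and 30.7% of all tested genes. In KD against control 18 were higher and 3 lower (median 0.40, all genes 0.02), beside 25.6% and 24.1%. The 3 became 1 with library totals alone and 5 with RLE scaling or DESeq2. In FL against delta45 3 were higher and 26 lower (median -1.36, all genes -0.01), beside 25.8% and 27.0%. In FL against KD 4 were higher and 21 lower (median -0.72, all genes -0.06), beside 26.3% and 31.7%. The 4 became 2 without FL replicate 3 or KD replicate 2, and 2 with library totals alone.

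In FL against control, where Myc was not called, 8 targets were higher and 13 lower (median -0.31, all genes -0.01), beside 28.1% and 31.2% of all tested genes, or 6 higher and 19 lower with library totals alone. Polr1b, which encodes a core subunit of the polymerase that transcribes ribosomal RNA, had 40.8, 38.8 and 41.9 CPM in FL, 139.5, 138 and 134 CPM in delta45, 38.9, 40.4 and 32.7 CPM in KD, and 13.5, 13.9 and 14.2 CPM in control. Control lay below every other library, and Polr1b was 9.89-fold higher in delta45 than in control (edgeR adjusted p = 3.27e-10) and 2.92-fold higher in FL than in control (edgeR adjusted p = 9.55e-08). Srm, spermidine synthase, had 15, 21.8 and 22.3 CPM in FL, 112, 131 and 125 CPM in delta45, 70.7, 75.6 and 66 CPM in KD, and 46.7, 43.7 and 32.8 CPM in control. Its groups did not overlap, and it was 6.21-fold lower in FL than in delta45 (edgeR adjusted p = 4.07e-08). Nop56, a nucleolar box C/D protein, was 4.21-fold higher in delta45 than in control (edgeR adjusted p = 3.02e-09).

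Some targets went against the rest. Ldha, lactate dehydrogenase A, was the gene lower in delta45 than in KD, at 249.9, 246 and 261 CPM in delta45 and 1069, 1857 and 2158 CPM in KD, 6.72-fold lower (edgeR adjusted p = 4.93e-07). Tfrc, the transferrin receptor, which erythroid cells also use heavily for iron uptake, averaged 6274 ± 462 CPM in FL and 569 ± 71.8 CPM in KD (SD, n = 3 each), 11-fold higher in FL (edgeR adjusted p = 2.18e-07).

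Most of the genes that MYC is known to repress were lower in delta45 than in KD or control. Of 9 tested, 8 were lower in delta45 than in control (median -1.27, all genes 0.01) and 1 was not called, beside 32.5% of all tested genes lower. In delta45 against KD 1 was higher and 7 lower (median -1.28, all genes -0.01), beside 29.2% and 30.7%. In FL against delta45 5 were higher and 1 lower (median 1.36, all genes -0.01), beside 25.8% and 27.0%, and the 1 became 3 with library totals alone. FL against KD had 2 higher and 6 lower (median -0.99, all genes -0.06), beside 26.3% and 31.7%, and FL against control 2 higher and 6 lower (median -0.50, all genes -0.01), beside 28.1% and 31.2%. KD against control had 3 higher and 3 lower (median -0.36, all genes 0.02), close to the 25.6% and 24.1% of all tested genes. Ndrg1, a stress and differentiation gene, had 161, 147 and 172 CPM in FL, 28.7, 26.8 and 31.2 CPM in delta45, 443, 666 and 549.8 CPM in KD, and 243, 236 and 204 CPM in control. It was 19.1-fold lower in delta45 than in KD (edgeR adjusted p = 1.88e-09) and 2.43-fold higher in KD than in control (edgeR adjusted p = 1.21e-05), where Myc was higher too. Cdkn1a, the CDK inhibitor p21, had 123, 136 and 118 CPM in KD and 34.7, 37.5 and 28.1 CPM in control, 3.76-fold higher in KD (edgeR adjusted p = 1.38e-07). Cdkn1b, the inhibitor p27, was 2.48-fold lower in KD than in control (edgeR adjusted p = 3.75e-06) and 3.61-fold lower in delta45 than in control (edgeR adjusted p = 7.92e-08).

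**Figure D4:**
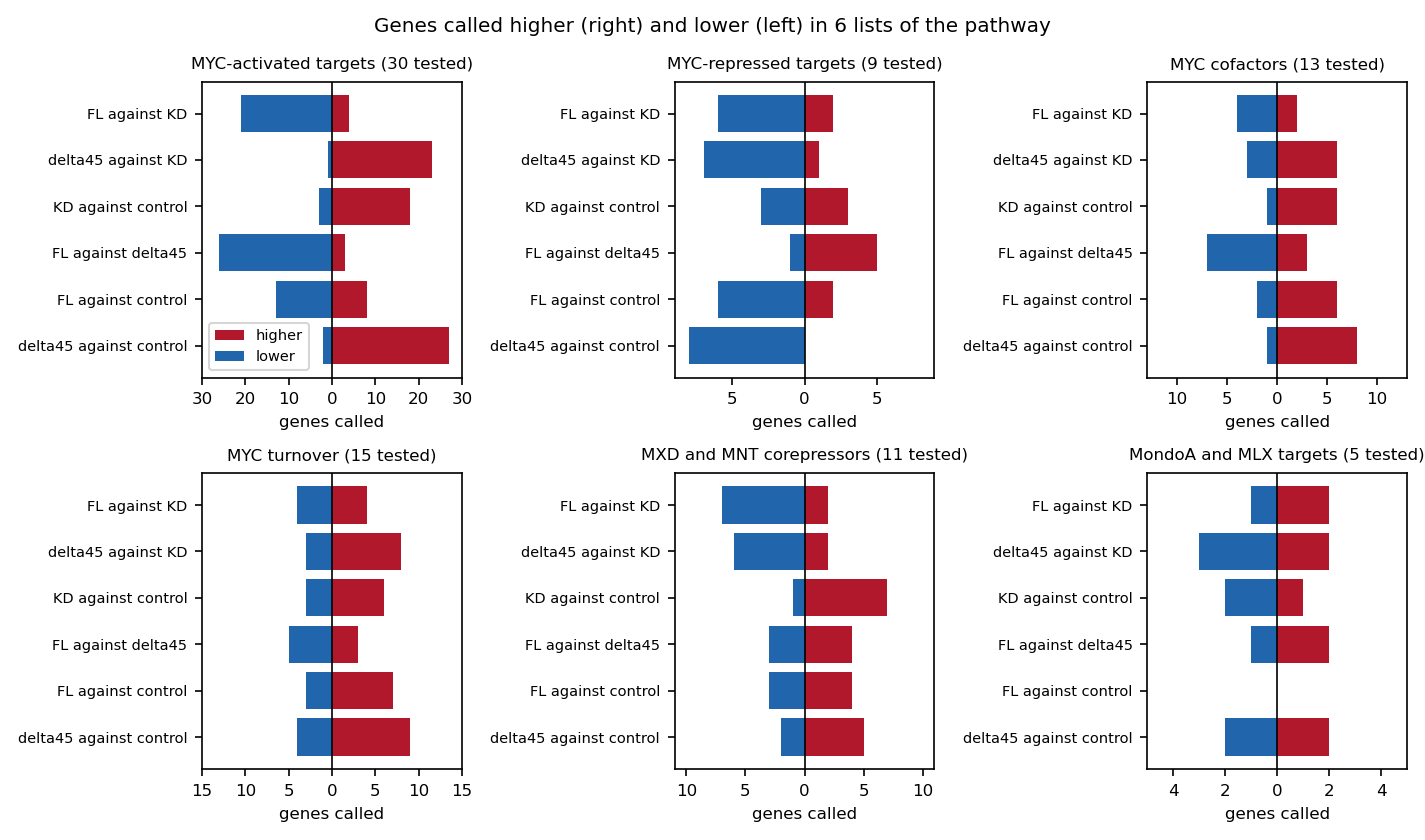
Number of genes called higher (right of 0) or lower (left of 0) in each of the 6 comparisons, by edgeR at an adjusted p under 0.05, for 6 of the 7 network lists. The list of MLX and MAX partners outside the members, which also holds Mycbp, is not drawn. MYC-activated targets run from 27 higher and 2 lower in delta45 against control to 3 higher and 26 lower in FL against delta45.

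Among 13 MYC cofactors, 8 were higher and 1 lower in delta45 than in control (median 0.65, all genes 0.01), beside 31.9% and 32.5% of all tested genes. FL against delta45 had 3 higher and 7 lower (median -0.49, all genes -0.01), beside 25.8% and 27.0%, or 1 and 7 with library totals alone. KD against control had 6 higher and 1 lower (median 0.345, all genes 0.02), beside 25.6% and 24.1%, and the 1 became 2 without KD replicate 2 or with the replicate number as a block. Delta45 against KD had 6 higher and 3 lower (median 0.29, all genes -0.01), beside 29.2% and 30.7%. FL against control had 6 higher and 2 lower (median 0.30, all genes -0.01), beside 28.1% and 31.2%, or 4 and 3 with library totals alone. The 2 higher and 4 lower in FL against KD (median -0.02, all genes -0.06) lay near the 26.3% and 31.7% of all tested genes. They became 1 and 6 with library totals alone, and the 2 became 1 without FL replicate 1. Kat2a, the acetyltransferase GCN5 that MYC recruits, had 72.9, 71.2 and 71.6 CPM in FL, 204, 221 and 225 CPM in delta45, 127, 138 and 129 CPM in KD, and 73.4, 65.9 and 63.7 CPM in control. Its order of groups was that of Myc, with FL and control overlapping, and it was 3.01-fold lower in FL than in delta45 (edgeR adjusted p = 1.82e-08). Actl6a, a shared subunit of remodelling and acetyltransferase complexes, did not follow it and was 1.98-fold lower in KD than in control (edgeR adjusted p = 8.52e-06).

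Of 11 corepressor genes for MXD and MNT, 7 were higher and 1 lower in KD than in control (median 0.40, all genes 0.02), beside 25.6% and 24.1% of all tested genes. The 1 was lost with library totals alone and without KD replicate 3, control replicate 1 or control replicate 3. In FL against KD 2 were higher and 7 lower (median -0.40, all genes -0.06), beside 26.3% and 31.7%, and in delta45 against KD 2 were higher and 6 lower (median -0.31, all genes -0.01), beside 29.2% and 30.7%. Delta45 against control had 5 higher and 2 lower (median 0.28, all genes 0.01), beside 31.9% and 32.5%. FL against delta45 had 4 higher and 3 lower (median -0.07, all genes -0.01) and FL against control also 4 and 3 (median 0.14, all genes -0.01), near the 25.8% and 27.0% and the 28.1% and 31.2% of all tested genes. With library totals alone these were 3 and 5, and 3 and 4. Ncor1, a nuclear receptor corepressor, was 2.93-fold higher in FL than in KD, at 886 ± 128 CPM in FL and 303 ± 80.2 CPM in KD (SD, n = 3 each, edgeR adjusted p = 8.43e-06). Sap30, a SIN3 complex subunit, averaged 18.1 CPM in FL, 19.1 CPM in delta45, 51.1 CPM in KD and 55.1 CPM in control, and was 2.82-fold lower in FL than in KD (edgeR adjusted p = 0.000199) and 2.67-fold lower in delta45 than in KD (edgeR adjusted p = 0.000287). Hdac1, the deacetylase bound to SIN3, was 2.25-fold higher in KD than in control (edgeR adjusted p = 2.98e-05).

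Of 15 genes that act on MYC protein stability, 9 were higher and 4 lower in delta45 than in control (median 0.57, all genes 0.01), beside 31.9% and 32.5% of all tested genes. The list mixes genes that stabilise MYC with genes that promote its destruction, so its counts and medians give no direction for MYC. Delta45 against KD had 8 higher and 3 lower (median 0.52, all genes -0.01), beside 29.2% and 30.7%. The 8 became 5 without KD replicate 3 or delta45 replicate 1, and the 3 became 1 without either of these or KD replicate 2. KD against control had 6 higher and 3 lower (median 0.30, all genes 0.02), beside 25.6% and 24.1%. FL against control had 7 higher and 3 lower (median 0.30, all genes -0.01), beside 28.1% and 31.2%, but 4 and 5 with library totals alone. FL against delta45 had 3 higher and 5 lower (median -0.13, all genes -0.01), near the 25.8% and 27.0% of all tested genes, and 1 and 7 with library totals alone. FL against KD had 4 and 4 (median -0.04, all genes -0.06), near the 26.3% and 31.7% of all tested genes. There the 4 higher became 2 without FL replicate 1, and library totals alone gave 0 higher and 7 lower. Usp36, a nucleolar deubiquitinase that stabilises MYC, had 38.1, 38.2 and 38.9 CPM in FL, 105, 111 and 115 CPM in delta45, 46.4, 41.3 and 38.4 CPM in KD, and 20, 19.3 and 18.9 CPM in control. It was 5.68-fold higher in delta45 than in control (edgeR adjusted p = 1.67e-09). Cip2a, which protects MYC from the phosphatase PP2A, was 5.95-fold lower in FL than in delta45 (edgeR adjusted p = 4.95e-06). Aurka, a mitotic kinase that shields MYCN from Fbxw7, was 4.38-fold lower in FL than in control (edgeR adjusted p = 2.94e-08), and Fbxw7, the ubiquitin ligase subunit that marks MYC for destruction, was 1.82-fold higher there (edgeR adjusted p = 1.43e-05). Fbxw7 was also 1.39-fold higher in delta45 than in control (edgeR adjusted p = 0.00148). So were Skp2 (2-fold, edgeR adjusted p = 7.95e-05) and Gsk3b (2.11-fold, edgeR adjusted p = 0.00018).

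On the MLX side, Mlxip (MondoA) was 1.71-fold lower in KD than in control, at 75.7, 81.9 and 62.6 CPM in KD and 137, 119 and 121 CPM in control (edgeR adjusted p = 0.000261). Mlxipl (ChREBP) had at most 17 reads in a group, in KD, and was not tested. Mga, which joins MAX in another repressor complex, was 2.26-fold higher in delta45 than in KD, at 263, 225 and 228 CPM in delta45 and 133, 115 and 69.4 CPM in KD (edgeR adjusted p = 0.000493). Over the 3 genes of this list that were tested (Mlxip, Mga and Mycbp), Mlxip was also lower in FL and in delta45 than in control. Mga was also higher in delta45 than in control and lower in FL than in delta45. In FL against KD edgeR called 0 of the 3, with 1 at an unadjusted p under 0.05 and 0 by DESeq2. That 0 became 2 higher without KD replicate 1, and 1 higher without KD replicate 2, control replicate 3 or any delta45 library. The 1 higher in delta45 than in control became 2 without control replicate 3. Of all tested genes, 49.7% were called in KD against control, 58.0% in FL against KD and 59.9% in delta45 against KD. The shares were 52.8% in FL against delta45, 59.3% in FL against control and 64.4% in delta45 against control. With 3 genes these counts say little by themselves.

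Txnip, an inhibitor of glucose uptake and the best known target of MondoA and MLX, set delta45 apart. It had 4043, 4108 and 4124 CPM in FL, 165, 166 and 167 CPM in delta45, 4039, 2153 and 2010.1 CPM in KD, and 4243, 3294 and 4504 CPM in control. The delta45 libraries lay below all others, whereas Mlx itself was lower in delta45 than in FL but not than in KD or control. Txnip was 24.6-fold higher in FL than in delta45 (edgeR adjusted p = 9.53e-09), 16.5-fold lower in delta45 than in KD (edgeR adjusted p = 7.48e-08) and 24.2-fold lower in delta45 than in control (edgeR adjusted p = 1.28e-08). Txnip was also 1.47-fold lower in KD than in control (edgeR adjusted p = 0.0481), a call lost without any library but KD replicate 1 and control replicate 2, and 1.5-fold higher in FL than in KD (edgeR adjusted p = 0.0342), lost without any FL library, KD replicate 2 or KD replicate 3.

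Of 5 targets of this branch tested, Txnip included, 2 were higher and 2 lower in delta45 than in control, close to the 31.9% and 32.5% of all tested genes, and 2 higher and 3 lower in delta45 than in KD, beside 29.2% and 30.7%. Arrdc3, an arrestin-domain gene, was 4.45-fold higher in delta45 than in KD (edgeR adjusted p = 7.55e-05), and Arrdc4 had 0 reads. FL against delta45 had 2 higher and 1 lower, the 1 becoming 0 without FL replicate 2, FL replicate 3 or delta45 replicate 1, while it became 2 when KD replicate 3 was left out or with library totals alone, beside 25.8% and 27.0% of all tested genes. FL against KD had 2 higher and 1 lower, beside 26.3% and 31.7%, or 1 and 2 with library totals alone. There the 2 became 1 without any FL library, KD replicate 2 or KD replicate 3, and the 1 became 0 without KD replicate 2 and 2 without KD replicate 3. KD against control had 1 higher and 2 lower, beside 25.6% and 24.1%, or 2 and 1 with library totals alone and 0 and 2 with RLE scaling or DESeq2. There the 1 became 0 without any FL or delta45 library, control replicate 1 or control replicate 2, and the 2 became 1 without any FL or delta45 library, KD replicate 2, KD replicate 3 or control replicate 1, and 0 without control replicate 3. In FL against control edgeR called 0 of the 5, as did DESeq2, with 0 at an unadjusted p under 0.05, beside 28.1% and 31.2% of all tested genes called higher and lower. There 1 was called higher without KD replicate 1 or KD replicate 3, and 1 lower with library totals alone.

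The genes whose pattern over the 12 libraries was most like that of Myc were Ttc27, Slc25a32, Hgh1, Gart and Kat2a. Likeness was the root mean square difference of log2 CPM, each gene centred on its own mean, among 8742 genes. It was 0.228 to 0.25 for these 5, against a median of 0.917 for all genes compared. Gart, a purine synthesis enzyme, averaged 52.1 CPM in FL, 185 CPM in delta45, 97.4 CPM in KD and 47.3 CPM in control, and Slc25a32, a mitochondrial folate and flavin carrier, 16, 52, 24.9 and 13.5 CPM.

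For Mxd3, the nearest were Aunip, Mns1, Tcf19, Cenps and Gins2, at 0.373 to 0.471 against a median of 1.71. Gins2, a subunit of the replicative helicase, averaged 6.88 CPM in FL, 43 CPM in delta45, 53.3 CPM in KD and 37.3 CPM in control, and Cenps, a centromere and DNA repair protein, 1.53, 10.6, 19.2 and 8.82 CPM. All 5 were lowest in FL and highest in KD. These likenesses describe the same 12 libraries, which share depth and group, and carry no test.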

How the data were processed

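Induced MEL cells were profiled by RNA-seq in 12 libraries, 4 groups of 3, made from RNeasy RNA with the TruSeq RNA kit V2, per the labels' protocols. Each library's deposited file holds raw read counts for Ensembl genes, with no scaling. The submitters' processing notes name HTSeq 0.5.3p9, TopHat 1.4.1, DESeq 1.10.1, cutadapt 1.1 and build mm9, and how they were used, and with which annotation, is not given in the sources here. Rows that name no gene held 46.3 to 57.7% of tallied reads and entered neither library sizes nor tests. Symbols matched 32919 of 37991 identifiers.

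From these counts, filterByExpr kept 12837 genes, TMM scaled the libraries, and edgeR 4.0.16 in R 4.3.3 (glmQLFit, glmQLFTest) was fitted to all 12 libraries with a mean for each group. A call is a Benjamini-Hochberg adjusted p under 0.05 over all tested genes of a comparison. The SE is the size of the log2 change over the square root of F. Exon lengths came from a GENCODE annotation of GRCm38, a build other than that of the authors, and were used as lengths only. The fit was tested on simulated counts.

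The 10 members and the 7 gene lists (88 genes, all matched) were chosen with earlier results of these data known, so their directions are not independent evidence. From each list up to 4 genes a comparison were named by smallest adjusted p among called genes reaching 5 CPM. Like genes had a mean of at least 10 CPM and a prior count of 1. Alternatives were RLE scaling, library totals alone, globins left out, other count filters, a test against a 1.5-fold change, fits to 2 groups only, a replicate block, DESeq2 1.42.0, and each library left out. No libraries agreed within counting noise (smallest chi-square per degree of freedom 2.22). Same-numbered libraries deviated together (r over 0.1) in 1 or 2 of 3 pairs a comparison. Pairing was taken only where all 3 pairs passed or the labels state it, so the samples were treated as unpaired.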

Additional observations from a re-analysis of the deposited data

How the results depend on the processing

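Over 21 alternatives, the 48 member changes gave 1008 values. The 32 called changes never turned sign. Testing against a 1.5-fold change left 1 member called in KD against control, 3 in delta45 against KD, 4 in FL against delta45 and 2 in FL against control. In FL against KD it lost the calls of Myc (edgeR adjusted p = 0.225) and Max (edgeR adjusted p = 0.926), and in delta45 against control that of Mlx. Over all genes that test called 2387 in KD against control, 3510 in FL against KD, 3506 in delta45 against KD, 3233 in FL against delta45, 3835 in FL against control and 4596 in delta45 against control, in place of 6380, 7445, 7693, 6778, 7616 and 8271. That test asks for a larger change by its construction.

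Leaving out 1 library gave 4 to 6 members called in KD against control, 6 to 7 in FL against KD, 5 to 6 in delta45 against KD, 6 to 7 in FL against delta45, 4 to 5 in FL against control and 3 to 4 in delta45 against control. Over all genes the ranges were 5474 to 7208, 6397 to 7884, 6550 to 8255, 5768 to 7515, 6721 to 8412 and 7446 to 8866 in the same order.

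Changes that turned sign were all uncalled. With library totals alone they were Mxd4 in FL against KD (-0.13), Max in FL against delta45 (-0.25) and Myc in FL against control (-0.14). That scaling also called 6 members in FL against control in place of 4, adding Max (-0.30, edgeR adjusted p = 0.0437) and Mnt (-0.45, edgeR adjusted p = 0.0254), both lower. Over all genes it called 7475 there in place of 7616. Leaving out 1 library gave ranges that crossed 0 for Mlx in KD against control (-0.014 to 0.094), Mnt in FL against KD (-0.102 to 0.212), Max in FL against delta45 (-0.031 to 0.106) and in FL against control (-0.174 to 0.003), and Mxd1 in delta45 against control (-0.161 to 0.043). Mnt in FL against KD was also 0.03 with those 2 groups alone. The causes were not tested.

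With the replicate number as a block, 5, 6, 7, 7, 5 and 4 members were called in KD against control, FL against KD, delta45 against KD, FL against delta45, FL against control and delta45 against control. Over all genes the block gave 6593, 7627, 7849, 6936, 7819 and 8408. In delta45 against KD the block added Mnt (0.39, edgeR adjusted p = 0.0323), and in FL against control Mxd4 (edgeR adjusted p = 0.047). Of 12 libraries, 9 deviated most like those with their own number, a hint from the data and not from the design. DESeq2 called 8 members in delta45 against KD, and 7864 of all 12837 tested genes there, in place of 7693 by edgeR. Depth limits Mxd3 in FL, Mycn and Mycl.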
